A study of Heterocephalus glaber with 6 samples.

Results

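The epidermis of naked mole-rats given DMBA and then TPA and harvested on day 46 was compared with epidermis given DMBA alone and harvested on day 10. The comparison holds 4 of the 6 samples of the series, namely both DMBA/TPA samples and both DMBA samples, chosen by their labels, with 1 library each. In the DMBA/TPA group a single dose of 100 µl DMBA at 1 mg/ml on the back skin was followed by TPA at 0.1 mg/ml, applied 2 times per week. In the DMBA group the same single dose was the only treatment. The remaining 2 samples are acetone-treated skin, 1 set for each treatment with 2 count columns per set, taken here as 4 libraries and used as a baseline. The sources used here do not give their day of harvest. All animals were labelled WT and were 6 to 7 months old. Nothing in the labels ties each library to an animal of its own, and p-values therefore rest on the spread between libraries, some or all of which may be technical. Treatment and day of harvest changed together, so an effect of TPA and an effect of the later day cannot be told apart.

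DMBA is a polycyclic aromatic hydrocarbon that skin enzymes convert into reactive metabolites that bind DNA, and in mouse skin a single dose serves as the initiating step of chemical carcinogenesis. TPA is a phorbol ester that activates protein kinase C. In mouse skin its repeated application causes inflammation and keratinocyte proliferation and promotes papillomas from initiated cells. Naked mole-rats are long-lived rodents in which tumours are rarely seen.

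Counts were given per gene ID, called a locus here. Of the 33281 loci, 16308 carried Ensembl-format IDs and 16973 carried running numbers from a transcript assembly. None of the IDs could be matched to a gene symbol, so results are given by locus and by class of locus, and the tissue label could not be checked against keratinocyte markers. The DMBA/TPA libraries had 34537133 and 38124702 counts, the DMBA libraries 30080934 and 35238753, and the acetone libraries between 22852358 and 27486387. Levels are read counts scaled to library size (CPM) after TMM scaling, which corrects for the share of counts taken by a few loci. These are bulk samples, so fewer cells of a type and less RNA per cell cannot be told apart.

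The DMBA/TPA libraries were close to each other, and the DMBA libraries were not. Over the 18422 loci tested, the median absolute log2 ratio of CPM was 0.23 between the DMBA/TPA libraries and 0.40 between the DMBA libraries. Between a DMBA/TPA and a DMBA library it lay between 0.40 and 0.45. The DMBA libraries therefore differed from each other about as much as the first of them differed from the first DMBA/TPA library. The second DMBA library was also nearer to the acetone libraries, with medians of 0.39 to 0.44, than the first was, with medians of 0.40 to 0.59. Neither pair agreed within sampling noise, with a chi-square per degree of freedom of 34.8 for DMBA/TPA and 137.4 for DMBA. The acetone sets differed as well, with medians of 0.35 to 0.41 between a library of one set and a library of the other. Within a set the median was 0.24 for the DMBA/TPA set and 0.32 for the DMBA set. The DMBA/TPA libraries were farther from their own acetone set (0.62 to 0.67) than from the DMBA set (0.47 to 0.57). The acetone range used below spans both sets.

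In all, 433 loci differed between the groups, which is 2.35% of those tested (edgeR's quasi-likelihood test, Benjamini-Hochberg adjusted p below 0.05). That count takes the 2 columns of each acetone sample as separate libraries. With those columns summed 116 loci were called, 36 higher and 80 lower, and with the DMBA/TPA and DMBA libraries alone 123, 42 higher and 81 lower. Of the 433, 209 were higher in DMBA/TPA and 224 lower, 1.13% and 1.22% of the loci tested. The loci that rose had a median log2 fold change of 1.12 and those that fell a median of -1.63. Both medians were the same with loci lacking counts in a group placed at the lower bound that a floor of 3 counts in each library allows. Past 2-fold were 139 of the higher and 197 of the lower loci, and past 4-fold 43 and 70. Over all loci tested, called or not, 1168 were higher and 1796 lower past 2-fold, and 401 and 642 past 4-fold. In all 433 the CPM of the groups did not overlap, but this was so for 9062 of the loci tested, or 49.2%. The nearest libraries of the groups were more than 2-fold apart in 248 of the called loci and in 696 loci that were not called.

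**Figure D1:**
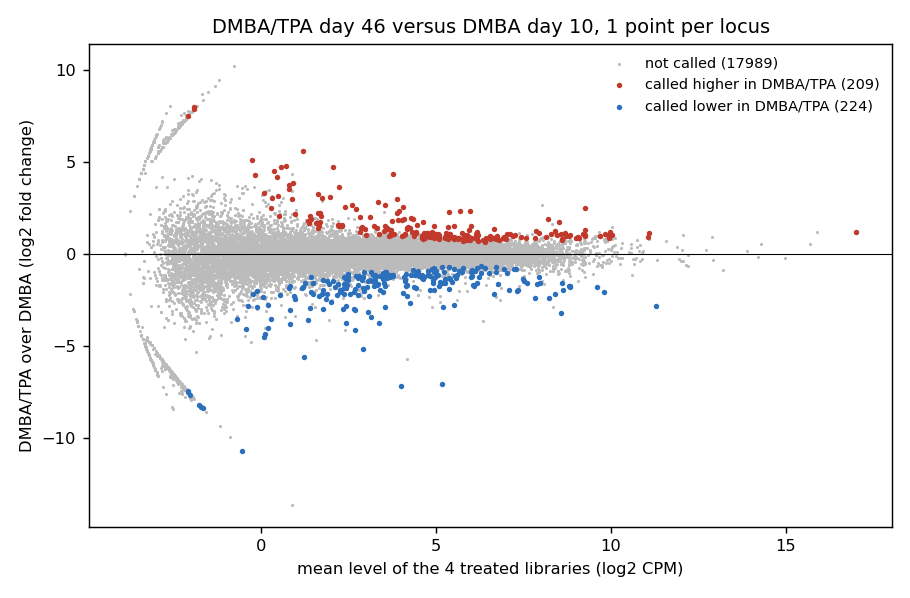
Log2 fold change of DMBA/TPA over DMBA against the mean log2 CPM of the 4 treated libraries, 1 point per locus, with the 209 loci called higher in red, the 224 called lower in blue and the others in grey. Calls reach from low to high levels in both directions, and the curved outer bands are loci with no counts in one group.

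The number of calls rested on single libraries. It was 28 without the first and 5 without the second DMBA/TPA library. Leaving out the first DMBA library gave 1202 calls and leaving out the second gave 730, and it was 181 when the first acetone library of the DMBA/TPA set was left out and 186 when the second was. A different scaling moved the split between rises and falls. With total counts alone 113 loci were higher and 651 lower, or 14.8% higher against 48.3% after TMM scaling, and all loci tested shifted to a median of -0.25 on the log2 scale. Called the same way under TMM, upper-quartile and total-count scaling in edgeR and in DESeq2 were 109 higher and 223 lower loci.

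**Figure D2:**
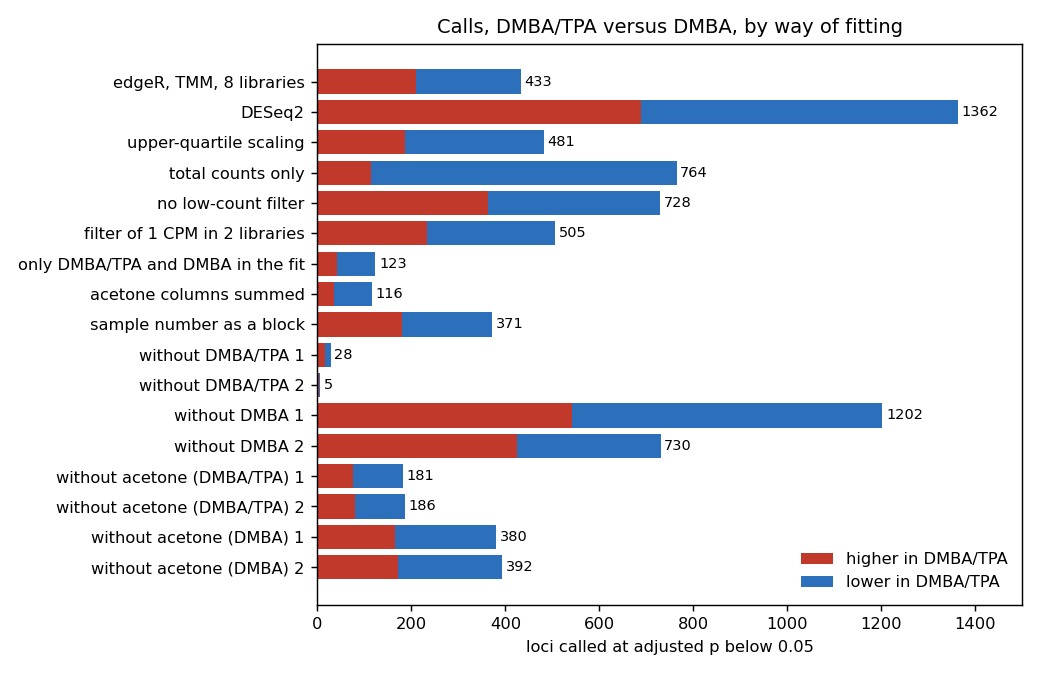
Number of loci called at an adjusted p below 0.05 in each fit, red for higher and blue for lower in DMBA/TPA, with the total at the end of the bar. The total was 433 in the fit of all 8 libraries by edgeR, 1362 by DESeq2, and lowest, at 5, without the second DMBA/TPA library.

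The locus with the smallest p among those that rose was MSTRG.14712. It had 60.5 and 63.1 CPM in the DMBA/TPA libraries and 3.72 and 2.40 CPM in the DMBA libraries. The acetone libraries of the DMBA/TPA set had 11.5 and 4.91 CPM, and those of the DMBA set 9.95 and 8.34 CPM. The DMBA/TPA libraries were thus above, and the DMBA libraries below, every acetone library. The log2 fold change was 4.34 ± 0.40 (SE; edgeR adjusted p = 0.00735), and the locus stayed called in all 16 other fits, with an adjusted p of at most 0.0449 in edgeR and DESeq2.

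MSTRG.822 was the most abundant locus of the epidermis and also rose. It took 15.0% and 17.8% of all counts in the DMBA/TPA libraries and 8.18% and 8.65% in the DMBA libraries. In the acetone libraries it took 3.99% and 4.12% in the DMBA/TPA set and 5.76% and 5.35% in the DMBA set. The order was therefore DMBA/TPA, then DMBA, then acetone, with no overlap between these. The scaled counts gave a log2 fold change of 1.20 ± 0.25 (SE; edgeR adjusted p = 0.0417). The call was lost in each fit without 1 DMBA/TPA library or 1 acetone library, where the edgeR adjusted p lay between 0.0597 and 0.337, and in the fits of the DMBA/TPA and DMBA libraries alone or with the acetone columns summed (edgeR adjusted p = 0.143 and 0.145).

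The locus with the smallest p of all was MSTRG.8501, which fell. It had 1.18 and 1.27 CPM in the DMBA/TPA libraries and 48.5 and 40.9 CPM in the DMBA libraries. The acetone libraries had 3.49 and 1.29 CPM in the DMBA/TPA set and 1.38 and 1.90 CPM in the DMBA set. The high level was thus in the DMBA libraries, and the DMBA/TPA libraries lay just under the lowest acetone library. The log2 fold change was -5.19 ± 0.43 (SE; edgeR adjusted p = 0.00731). Of the 16 other fits, the one without the second DMBA/TPA library lost the call (edgeR adjusted p = 0.0590, log2 fold change -5.24).

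MSTRG.5578 had the highest mean level among the loci that fell. It had 899.4 and 1008 CPM in the DMBA/TPA libraries and 4857 and 8894 CPM in the DMBA libraries. The acetone sets of this locus did not overlap, with 6511 and 5309 CPM in the DMBA/TPA set and 459.2 and 1865 CPM in the DMBA set. The DMBA/TPA libraries lay within the range of the acetone libraries, far below their own set and between the libraries of the other. The log2 fold change was -2.85 ± 0.58 (SE; edgeR adjusted p = 0.0429). This call was lost when any 1 treated library or either acetone library of the DMBA/TPA set was left out (edgeR adjusted p between 0.0762 and 0.254), and also with no low-count filter (edgeR adjusted p = 0.158).

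**Figure D3:**
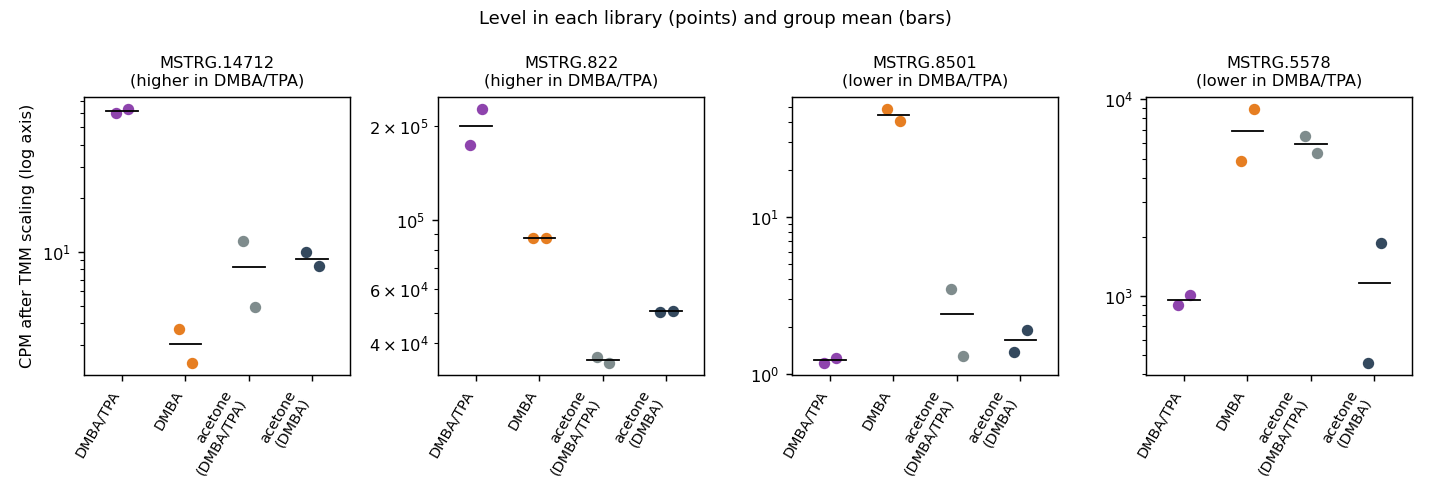
CPM after TMM scaling, on log axes with a range of their own in each panel, of MSTRG.14712, MSTRG.822, MSTRG.8501 and MSTRG.5578 in every library (points), with group means (bars). In each panel the DMBA/TPA and DMBA points do not overlap, and the acetone points lie between them for MSTRG.14712, below both for MSTRG.822 and beside DMBA/TPA for MSTRG.8501.

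Set against acetone skin, most of the higher loci lay above the acetone libraries in DMBA/TPA, and most of the lower loci lay below them in DMBA/TPA. The 209 higher loci had median levels of 5.49 and 5.48 log2 CPM in the DMBA/TPA libraries and 4.41 and 4.33 log2 CPM in the DMBA libraries. Their medians in the acetone libraries were 4.11 and 4.12 log2 CPM in the DMBA/TPA set and 4.31 and 4.27 log2 CPM in the DMBA set. The 224 lower loci had median levels of 2.86 and 2.88 log2 CPM in the DMBA/TPA libraries and 4.40 and 4.52 log2 CPM in the DMBA libraries. In the acetone libraries these medians were 4.48 and 4.24 log2 CPM in the DMBA/TPA set and 3.61 and 3.76 log2 CPM in the DMBA set. For the higher loci the DMBA medians were closer to every acetone median than the DMBA/TPA medians were. For the lower loci they were closer to those of the DMBA/TPA set, while the DMBA set lay between the treated groups. The same medians over all loci tested lay between 2.94 and 3.04 log2 CPM in the 8 libraries.

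The DMBA/TPA mean lay above all 4 acetone libraries in 196 of the 209 higher loci. In 97 of these the DMBA mean was also above all acetone libraries, in 60 it was within their range, and in 39 it was below all of them. Over all loci tested, the DMBA/TPA mean was above every acetone library in 29.7%. The DMBA mean was then also above in 17.1% of all loci tested, within the range in 11.3% and below in 1.26%. Choosing loci by a high DMBA/TPA level raises such shares by itself, so they are a description without a test.

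Among the 224 lower loci the DMBA/TPA mean lay below all 4 acetone libraries in 173, against 30.0% of all loci tested. Choosing loci by a low DMBA/TPA and a high DMBA level moves such shares by itself, so they too are a description without a test. In 97 of these 173 the DMBA mean was within the acetone range, a combination found in 11.5% of all loci tested. In 53 the DMBA mean was above and the DMBA/TPA mean below every acetone library, against 1.67% of all loci tested. In 36 the DMBA mean was above the range and the DMBA/TPA mean inside it, against 5.87% of all. In 11, or 4.91% of the lower loci against 29.5% of all, both were inside it. In 23, or 10.3% of the lower loci against 16.9% of all, both were below, with medians of 1.68 log2 CPM in DMBA/TPA and 3.31 log2 CPM in DMBA, against 4.34 log2 CPM in acetone. Scaled by total counts, 176 of the higher loci had a DMBA/TPA mean above and 202 of the lower loci one below every acetone library. Over all loci tested that scaling gave 13.1% above and 50.5% below.

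**Figure D4:**
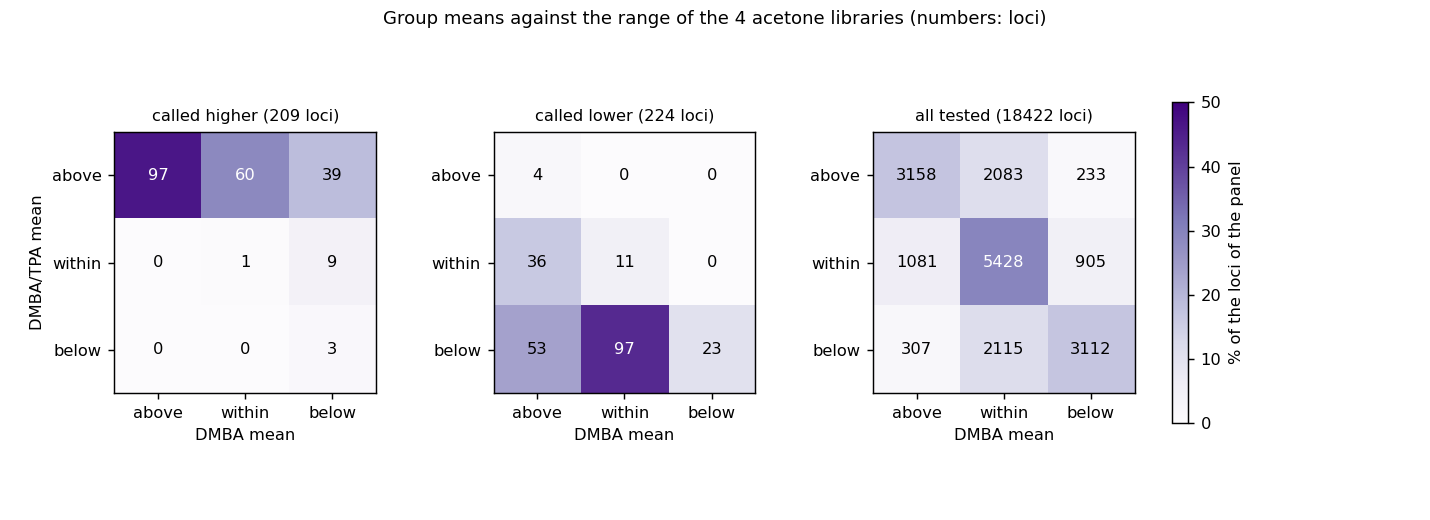
Number of loci by the place of the DMBA/TPA mean (rows) and the DMBA mean (columns) relative to the range of the 4 acetone libraries, for loci called higher, loci called lower and all loci tested, shaded by the percent of each panel. The top row holds 196 of the 209 higher loci, in cells of 97, 60 and 39, and the bottom row holds 173 of the 224 lower loci, in cells of 53, 97 and 23. Over all loci tested the fullest cell, with 5428, has both means within the range.

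Among called loci with counts in both groups, 19 were higher and 21 lower by more than 8-fold. Over all loci tested, called or not, 61 were higher and 100 lower by that size with counts in both groups, or 0.331% and 0.543%. The 19 called higher loci were all assembled loci, as were 197 of all 209 called higher loci. The 19 had 2.63 to 60.5 CPM in the first and 3.27 to 63.1 CPM in the second DMBA/TPA library. MSTRG.14712 had the highest of these levels. The medians of the 19 were 6.10 and 7.38 CPM in the DMBA/TPA libraries and 0.567 and 0.343 CPM in the DMBA libraries. Their medians in the acetone libraries lay between 0.485 and 1.26 CPM. The DMBA/TPA mean was above every acetone library in 18 of the 19, against 29.7% of all loci tested. In 10 of these the DMBA mean was below every acetone library, a combination found in 1.26% of all. Choosing loci by fold size moves such counts by itself.

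Of the 21 called loci that fell past 8-fold, 7 had Ensembl-format IDs, as did 38 of all 224 lower loci. The medians of the 21 were 0.505 and 0.901 CPM in the DMBA/TPA libraries and 13.1 and 10.8 CPM in the DMBA libraries. In the acetone libraries the medians were 5.27 and 3.90 CPM in the DMBA/TPA set and 1.45 and 1.56 CPM in the DMBA set. The DMBA mean was above every acetone library in 16 of the 21, against 24.7% of all loci tested. Of these 16, the DMBA/TPA mean was below the acetone range in 11 and within it in 5. These combinations were found in 1.67% and 5.87% of all loci tested. Here too the choice by fold size moves the counts by itself. A pair of assembled loci had the largest falls of the 21. The more abundant of the pair had 4.88 and 1.94 CPM in the DMBA/TPA libraries and 620.8 and 288.4 CPM in the DMBA libraries. It had at most 5.79 CPM in any acetone library and a log2 fold change of -7.06 (edgeR adjusted p = 0.00814). The other had 1.85 and 0.901 CPM in the DMBA/TPA libraries, 265.4 and 137.7 CPM in the DMBA libraries and at most 3.75 CPM in acetone, a log2 fold change of -7.19 (edgeR adjusted p = 0.00814). In the more abundant of the pair the first DMBA library held 2.15 times the level of the second, and in the other 1.93 times. Both loci were picked out after their values were seen. With 1 treated library left out, 33 to 39 of these 40 loci stayed past 8-fold. That count follows fold size only, in loci chosen for their fold size, and does not say how many stayed called.

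**Figure D5:**
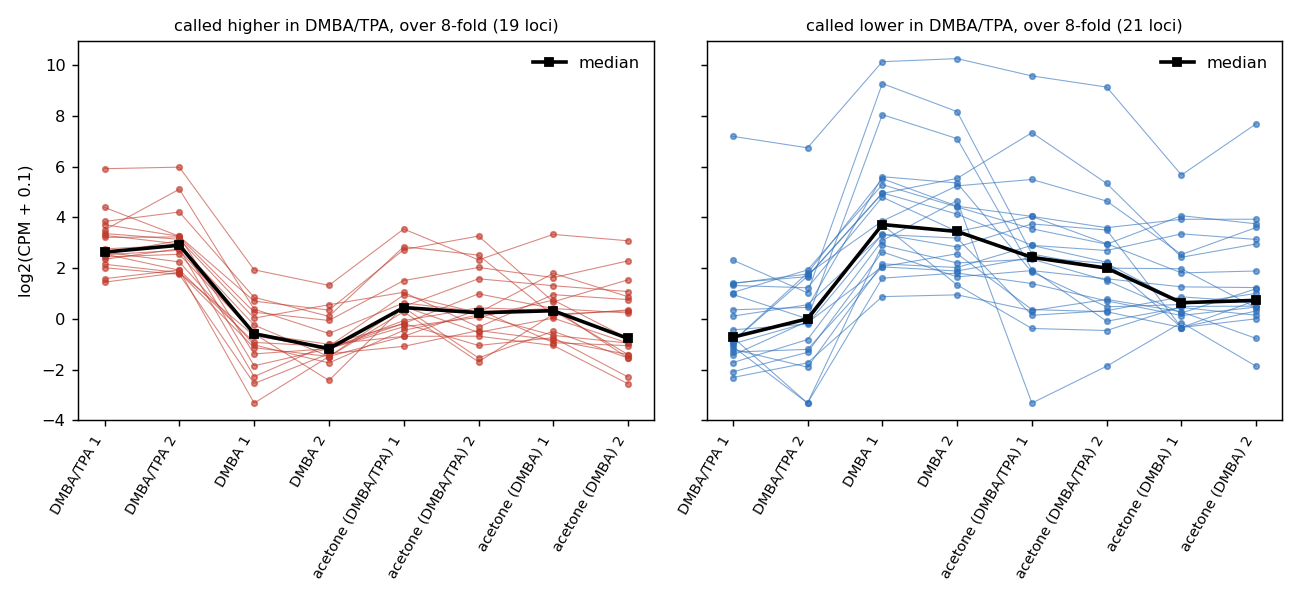
Level of each called locus that differed by more than 8-fold with counts in both groups, as log2(CPM + 0.1) in each library, with the median in black and lines that join the values of 1 locus. The median of the 19 higher loci is highest in the DMBA/TPA libraries, and the median of the 21 lower loci is highest in the DMBA libraries and lowest in the DMBA/TPA libraries.

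A further 10 called loci had no counts in either library of one group. In 7 of them both DMBA/TPA libraries were at 0 and in 3 both DMBA libraries. One of the 7 was an Ensembl-format locus with 9.17 and 5.39 CPM in the DMBA libraries and 0 in every DMBA/TPA and acetone library, at least 72.4-fold lower in DMBA/TPA than in DMBA by the same floor. It could pass the low-count filter only through the DMBA libraries, where it is high, so its call adds nothing to these values. In 8 of the 10 the absent group was the exception, with counts in the other treated group and in all 4 acetone libraries. The 5 of these that were at 0 in DMBA/TPA had 0.637 to 1.74 CPM in DMBA and 0.796 to 9.28 CPM in acetone. The 3 at 0 in DMBA had 0.606 to 1.44 CPM in DMBA/TPA and 0.459 to 2.12 CPM in acetone. Among all loci tested, 328 were at 0 in both DMBA/TPA libraries and 240 in both DMBA libraries, 58 of them in both groups.

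The share of loci called was larger at higher levels and larger among assembled than Ensembl-format loci, neither of which was tested. The share called was 0.455% under 0 log2 CPM, 2.25% between 0 and 3, 2.82% between 3 and 6 and 4.35% above 6, with 62 higher and 43 lower in the last. Of the 13957 assembled loci tested 197 were higher and 186 lower, 2.74% in all. Of the 4465 Ensembl-format loci 12 were higher and 38 lower, 1.12% in all, and their median level was lower, at 1.09 log2 CPM against 3.61 log2 CPM. Within the range of 3 to 6 log2 CPM the shares were 1.96% of the Ensembl-format and 3.01% of the assembled loci. Without the second DMBA library 40 Ensembl-format loci were called higher and 40 lower. With total counts alone 8 were higher and 115 lower.

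The most abundant loci took a larger share of the counts in both DMBA/TPA libraries than in either DMBA library, a difference that 4 libraries cannot bring under 0.05. The 10 most abundant loci of the series took 38.7% ± 3.48 of the counts in DMBA/TPA and 27.8% ± 2.79 in DMBA (SD, n = 2 each), a difference of 10.9 percentage points. MSTRG.822 by itself made up 7.99 of these points and was the only one of the 10 that was called. The exact two-sided permutation test over the 6 splits of 4 libraries gave p = 0.333, the smallest it allows. The other 208 higher loci together took 3.32% and 3.30% of the DMBA/TPA counts and 1.87% and 1.81% of the DMBA counts. The 224 lower loci took 0.655% and 0.573% of the DMBA/TPA counts and 2.36% and 3.17% of the DMBA counts. Exact 95% binomial intervals of the shares of the most abundant loci, which cover counting error only, were at most 0.0395 percentage points wide. Among the 100 most abundant loci 5 were higher and 5 lower, beside the 4.35% called of all loci above 6 log2 CPM.

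Most called loci had no neighbour in the numbering of the assembly that was called the same way. Of the 195 higher assembled loci whose next or previous number was tested, 18 (9.23%) had such a neighbour that was also higher, against 2.50% of all 13549 assembled loci with a tested neighbour. Of the 181 lower ones, 21 (11.6%) had a neighbour that was also lower, against 2.27%. The shares were not tested against each other, and the share of loci called also varied with level. A neighbour called in the other direction was found for 3 of the higher and 3 of the lower loci. The higher loci formed 9 pairs, and the lower loci formed 10 runs with a longest of 3. Adjacent numbers may be adjacent genes or pieces of 1 gene, which cannot be told apart here. With 1 DMBA/TPA library left out, too few calls remained to compare in either direction. In the other fits the share with a neighbour called the same way lay between 5.41% and 11.5% for higher loci. The share over all loci with a tested neighbour moved as well, between 0.383% and 7.52%. In DESeq2 58 of 599 higher loci (9.68%) had a neighbour called higher, against 7.52% of all loci with a tested neighbour. For lower loci the share with a neighbour called the same way was between 9.33% and 19.7% in the edgeR fits that kept both DMBA/TPA libraries. In DESeq2 it was 105 of 526, where 6.49% of all loci with a tested neighbour had one called lower.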

How the data were processed

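Dispase at 5 mg/ml freed the epidermis, and directional libraries were built from rRNA-depleted RNA of integrity number over 7, per the labels' protocols. The authors deposited unnormalized counts for each gene ID, per the labels. Per the submitters' processing notes the tools were cutadapt, FastQC, Bowtie2 and TopHat2, with no versions. Build, annotation, counting tool and strand setting were not given in the sources used here. Overlapping loci or near-identical copies may therefore share or split reads. A count column with only a number as its name was assigned to the second DMBA/TPA sample by its file.

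The tests used edgeR 4.0.16 in R 4.3.3, after filterByExpr (minimum count 10, minimum total 15) and TMM scaling. A robust quasi-likelihood model was fitted over 4 groups and 8 libraries, leaving 4 residual degrees of freedom (biological coefficient of variation 25.7%). The acetone libraries add to the estimate of spread. A standard error is the log2 fold change over the square root of its F. Log2 CPM used a prior count of 2. The procedure was run on counts simulated with the spread fitted to these data. That run checked the size and sign of known changes and gives no error rate for the calls made here. DESeq2 1.42.0 and 15 other fits were alternatives.

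The comparison, lists and tests were chosen with earlier results of these data known. Because 0 of the 33281 IDs were found among the 42221 rows of the RefSeq gene table used here, the gene and marker lists that had been drawn up were not used. The rule for named loci allowed 2 per direction: among called loci with a mean CPM of at least 2 on the log2 scale and groups that did not overlap, the one of smallest p and the one of highest mean CPM. Duplication was checked over loci with at least 20 counts in both libraries together.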

Additional observations from a re-analysis of the deposited data

How the results depend on the processing

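The number of calls depended on the fit. No called locus turned its sign in the 16 other fits, but groups of called loci did not overlap, which fixes the sign in most of them. The number was 1362 with DESeq2 (688 higher, 674 lower), of which 432 were among the 433, 764 with total counts only (113 higher, 651 lower), 728 with no low-count filter (362 higher, 366 lower), 123 with only the DMBA/TPA and DMBA libraries in the fit (42 higher, 81 lower), 116 with the acetone columns summed (36 higher, 80 lower) and 1149 at an adjusted p below 0.1 (572 higher, 577 lower). With 1 library left out it ranged from 5 to 1202, with 3 to 542 higher and 2 to 660 lower. A group reduced to 1 library was assumed to vary like the others. Without the first or the second acetone library of the DMBA/TPA set 76 or 79 loci were higher and 105 or 107 lower. The cause of these changes was not tested. Upper-quartile scaling gave 481 calls and the filter of 1 CPM in 2 libraries 505.

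Samples of the treated groups share only a number, and the deviations of same-numbered libraries from their group means were uncorrelated across loci (r = -0.000106, genes not being independent replicates). With sample number as a replicate block 371 loci were called (180 higher, 191 lower), 334 of them among the 433, and MSTRG.822 and MSTRG.5578 had edgeR adjusted p of 0.0557 and 0.0620. The difference in the share of the 10 most abundant loci lay between 8.43 and 13.4 percentage points with 1 treated library left out. The position of called loci against the acetone range under total counts or without 1 acetone library, and the loci past 8-fold without 1 treated library, were examined after seeing the data. The share of lower loci with a DMBA/TPA mean below every remaining acetone library ranged from 77.7% to 85.3%, and that with a DMBA mean above every remaining one from 42.0% to 53.6%. Leaving out a library can only narrow the acetone range, so these shares could not fall. Over all loci tested the same shares ranged from 32.4% to 34.7% and from 27.6% to 32.0%. At this depth loci at 0 counts in a library have an upper limit of 3 counts, 0.0856 to 0.106 CPM in the treated libraries.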
